A study of Mus musculus with 22 samples.

Results

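Collagen chain genes were taken as every row of both count tables whose gene symbol has the form Col, a number, a and a number, which gave 44 genes of 48709 in each table. By the architecture of the protein they make, 11 encode fibrillar chains, 8 chains of the basement membrane and 25 other chains. The 25 comprise 6 chains of type VI, 9 fibril-associated chains (FACIT), 3 short network-forming chains, 4 transmembrane chains and 3 of types VII, XXVI and XXVIII. A filter on a mean count above 1 left 43 of the 44 genes for testing in the first experiment and 40 in the second.

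A collagen molecule is a triple helix of 3 alpha chains, each from its own gene or from several copies of 1 gene. Fibrillar collagens of types I, III and V polymerize into the fibers that bear tension in the heart wall and its valves. Type IV collagen builds the sheet of the basement membrane around cardiomyocytes and vessels, and type VI and FACIT collagens sit on or between the fibers. In the heart, fibrillar collagen is made mainly by fibroblasts, epicardium-derived cells and valve mesenchyme, whereas type IV chains are made by many cell types, endothelial cells and cardiomyocytes among them.

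RNA was sequenced from ventricles of mouse embryos at E13.5 in 2 experiments, with 3 libraries for each of 6 genotype groups and 18 RNA libraries in all. LIN9 is a subunit of the MuvB complex, which represses or activates genes depending on its partners and, with B-MYB, switches on genes of mitosis. SAV1 is a scaffold of the Hippo pathway, which restrains the coactivator YAP. The study deleted both genes to learn how they act together in the growing heart, and here the collagen genes are followed through the same genotypes. In addition, 4 ChIP-seq samples belong to the series and were not analysed here.

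All 6 groups carried Nkx2.5-Cre, a recombinase active in cardiac progenitor cells, so that cells of other descent keep the floxed genes intact. The first experiment compared LIN9 wt with LIN9 KO ventricles. Their labels name no Sav1 genotype, and Sav1 is taken here as wild-type in both. The second held control (LIN9 wt with Sav1 wt), LIN9 KO (with Sav1 wt), Sav1 KO (with LIN9 wt) and double KO (LIN9 KO with Sav1 KO) ventricles. Per the study's text the knockouts are Lin9 fl/fl and Sav1 fl/fl, and the LIN9 wt groups are Lin9 fl/+, thus with 1 deletable Lin9 allele, although the labels call them wild-type. Mice were on a C57/Bl6 background. The labels do not tell whether a library is 1 embryo or a pool. A figure legend of the study, on LIN9 KO and LIN9 wt, speaks of biological replicates that were each run in triplicate. Libraries of the same group and experiment may thus be technical repeats of 1 biological replicate. The p-values therefore measure the spread between these libraries, which may be in part or wholly technical.

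Total counts lay between 9485599 and 9615274 per library in the first experiment and between 2770741 and 2999877 in the second. Lin9 itself stood at 21.4 to 29.8 CPM (counts scaled to a common library size after TMM normalization) in LIN9 wt and 19.2 to 21.4 CPM in LIN9 KO of the first experiment. In the second its values were 23.2 to 29.3 CPM in control, 13.2 to 17.9 CPM in LIN9 KO, 19.2 to 31.4 CPM in Sav1 KO and 18.5 to 26.1 CPM in double KO. These whole-gene counts include exons outside the deleted one, as do those of Sav1 (36.1 to 44.0 CPM in the Sav1-deleted groups, 47.4 to 61.9 CPM in control and LIN9 KO), so they check the deletion only in part. Lin9 overlapped with control in the double KO (log2 fold change -0.24, adjusted p = 0.385) and was not called lower in the first experiment (-0.31 ± 0.14, adjusted p = 0.13), so the genotypes rest on the labels. Markers of ventricular cardiomyocytes were detected in every library, with a sum over 10 genes of 10620 to 29640 CPM.

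Collagen RNA took a larger share of the libraries wherever Lin9 had been deleted. The 44 genes together held 0.406%, 0.417% and 0.340% of all counts in the 3 LIN9 wt libraries and 0.592%, 0.732% and 0.679% in the LIN9 KO libraries of the first experiment. The second gave 0.511%, 0.485% and 0.456% in control, 1.04%, 0.988% and 0.719% in LIN9 KO, 0.517%, 0.512% and 0.455% in Sav1 KO and 0.666%, 0.861% and 0.986% in double KO. The ranges of groups with and without Lin9 deletion did not overlap, while those of control and Sav1 KO did. Replicate 3 of LIN9 KO and replicate 1 of double KO were the lowest of their groups in the second experiment.

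**Figure D1:**
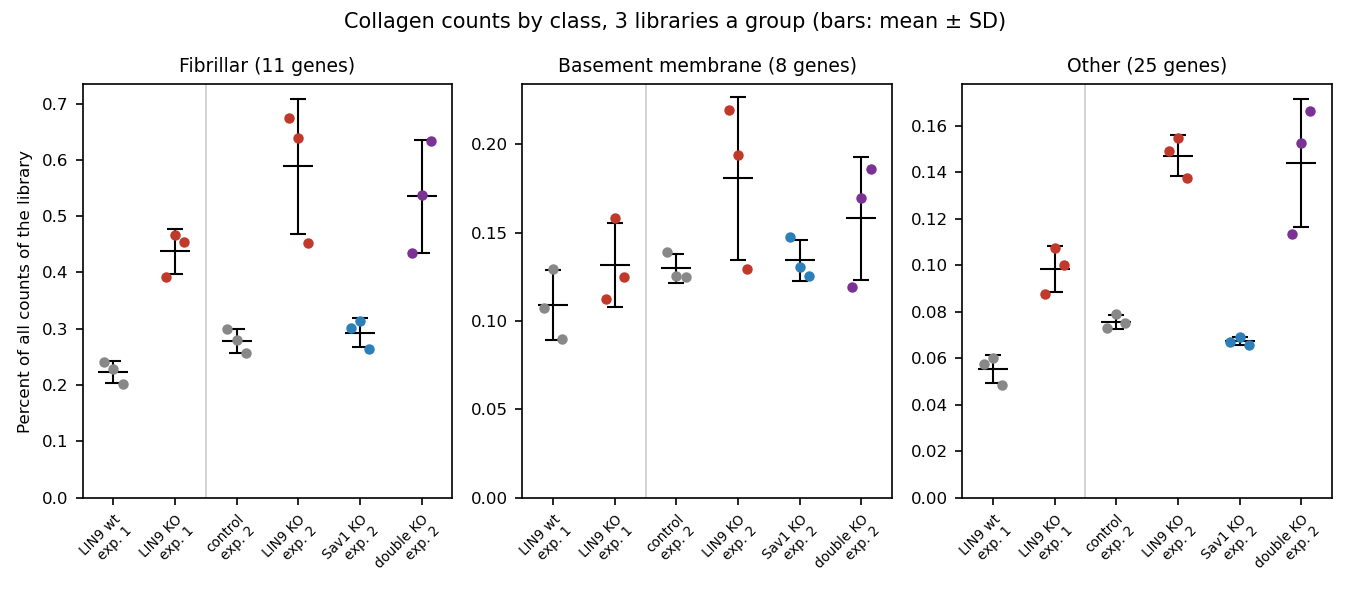
Share of all counts of a library (percent, vertical axis) held by fibrillar, basement membrane and other collagen genes, for each of the 6 genotype groups. Points are the 3 libraries and bars the mean and SD. Fibrillar and other chains lie higher in every library of the LIN9 KO and double KO groups than in those with Lin9, whereas the basement membrane points of these groups overlap with those of their controls.

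The gain was uneven between classes. Fibrillar genes held 0.223% ± 0.020 of the counts in LIN9 wt and 0.437% ± 0.040 in LIN9 KO of the first experiment (mean ± SD, n = 3 throughout). In the second they held 0.279% ± 0.022 in control, 0.589% ± 0.120 in LIN9 KO, 0.293% ± 0.026 in Sav1 KO and 0.535% ± 0.100 in double KO. Basement membrane genes moved from 0.109% ± 0.020 to 0.132% ± 0.024 in the first experiment, and from 0.130% ± 0.008 in control to 0.181% ± 0.046 in LIN9 KO and 0.158% ± 0.035 in double KO. Of all collagen counts, the basement membrane genes thus held 26.5% to 31.0% in LIN9 wt, 25.9% to 27.3% in control and 25.4% to 28.6% in Sav1 KO. They held 18.4% to 21.6%, 18% to 21.0% and 17.9% to 19.7% in LIN9 KO of the first experiment, LIN9 KO of the second and double KO. The makeup of the collagen RNA therefore separated libraries with and without Lin9 deletion with no overlap.

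Gene by gene, deletion of Lin9 raised about as many collagen genes in each of 4 comparisons. The first experiment called 20 of 43 tested members higher and 2 lower, against 11.1% of all genes tested higher and 9.78% lower (edgeR, adjusted p under 0.05). LIN9 KO against control called 19 of 40 higher and 2 lower, against 12.8% and 10.5% of all genes. Double KO against Sav1 KO called 22 higher and 1 lower of 40, against 11.8% and 11.6%. Double KO against control called 21 higher and 1 lower of 40, against 10.7% and 9.96%. The median log2 fold change over the tested members was 0.51, 0.70, 0.70 and 0.82 in these comparisons, beside 0.02, 0.01, 0.03 and 0.03 over all genes tested.

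Both LIN9 comparisons with wild-type Sav1 share no library. Of the 40 members tested in both, 38 had the same sign, and 19 were called in both, each time in the same direction. Over all 17656 genes tested in both, 77.6% had the same sign, and the 2621 called in both also all had the same direction. Across the 4 comparisons, of which those of the second experiment share groups, 16 members were called higher in all 4, namely Col1a1, Col1a2, Col3a1, Col5a1, Col5a2, Col6a1, Col6a2, Col6a3, Col8a2, Col9a1, Col9a2, Col9a3, Col11a1, Col14a1, Col16a1 and Col27a1. Another 5 were called higher in 3 of them (Col7a1, Col8a1, Col12a1, Col22a1 and Col23a1), Col24a1 in 2 and Col18a1 in 1. Col2a1 was called lower in all 4 and Col13a1 in 2.

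**Figure D2:**
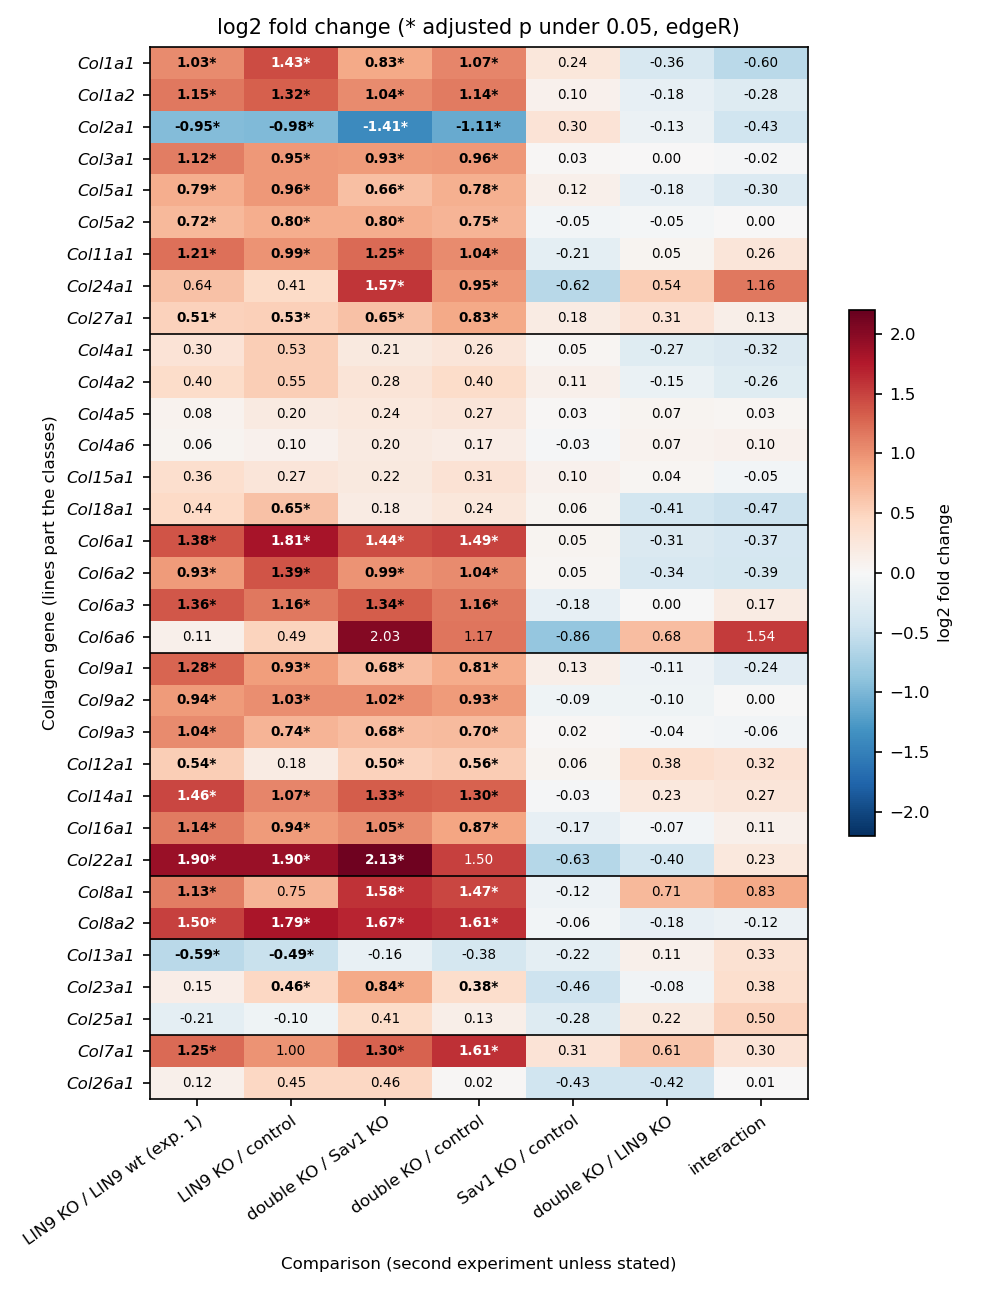
Color and number give the log2 fold change (edgeR) of 33 collagen genes in the 7 comparisons, with stars at an adjusted p under 0.05 and lines between the classes in the order fibrillar, basement membrane, type VI, FACIT, short network-forming, transmembrane, and types VII and XXVI. The 4 columns with Lin9 deletion are red except for Col2a1 and Col13a1 in all 4 and Col25a1 in both LIN9 comparisons with wild-type Sav1, and no star falls in the 3 columns on the right.

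Deletion of Sav1 changed no collagen gene by the same test. Sav1 KO against control called 0 of 40 members, with 2 at an unadjusted p under 0.05, and 0.0113% of all genes were called higher and 0.00566% lower. Double KO against LIN9 KO called 0 of 40, with 5 at an unadjusted p under 0.05, beside 0% of all genes higher and 0.0113% lower. The interaction, which asks whether the Sav1 effect differs with and without LIN9, called 0 of 40, with 3 at an unadjusted p under 0.05, and 0% of all genes in either direction. The counts at an unadjusted p stand without the share of all genes at that threshold. They do not tell whether collagen genes differ from other genes. DESeq2 called 0 members in each of the 3.

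Over the 29 members with a mean of at least 10 CPM, log2 fold changes ranged from -0.86 (Col6a6) to 0.30 (Col2a1) in Sav1 KO against control and from -0.42 (Col26a1) to 0.68 (Col6a6) in double KO against LIN9 KO, with lowest adjusted p of 0.566 and 0.235. Col6a6 showed the highest interaction of them, 1.54 (adjusted p = 0.84), which ran from 1.13 to 2.90 over all alternatives and passed the threshold in none. Col1a1 showed the lowest, -0.60 ± 0.24 (unadjusted p = 0.0251, adjusted p = 0.715), from 0.24 ± 0.17 with LIN9 and -0.36 ± 0.17 without it. That gene passed the threshold when replicate 3 of LIN9 KO was left out, at -0.79 for the interaction (adjusted p = 0.0126) and -0.55 for double KO against LIN9 KO (adjusted p = 0.0114), and so did Col18a1 in the latter at -0.59 (adjusted p = 0.0309). Without that library, 64 of all genes were called for the interaction and 378 for double KO against LIN9 KO. A member that misses the threshold is not thereby shown to be alike in both groups.

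Fibrillar chains were called in 8 of 11 members in both LIN9 comparisons with wild-type Sav1 and in 9 of 11 in the other 2, always with Col2a1 as the lone lower one, beside 11.1%, 12.8%, 11.8% and 10.7% of all genes called higher in the 4 comparisons. Col1a1 and Col1a2 encode the chains of type I collagen, the main fiber of connective tissue. Col1a1 stood at 538, 401 and 460.4 CPM in LIN9 wt and at 875, 882 and 1104 CPM in LIN9 KO of the first experiment. Its values in the second were 588, 509.5 and 467 CPM in control, 1592, 1612 and 1008 CPM in LIN9 KO, 652.5, 621 and 579 CPM in Sav1 KO, and 899, 1159 and 1230 CPM in double KO. Every library with Lin9 deleted lay above every library with Lin9 of the same experiment. The log2 fold change was 1.03 ± 0.14 (SE) in the first experiment (adjusted p = 0.00012), 1.43 ± 0.17 in LIN9 KO against control (adjusted p = 3.95e-05), 0.83 ± 0.17 in double KO against Sav1 KO (adjusted p = 0.00284) and 1.07 ± 0.17 in double KO against control (adjusted p = 0.000525).

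Col1a2 rose in the same 4 comparisons. It rose from 433, 386 and 383 CPM to 798, 894 and 981 CPM in the first experiment. In the second it held 565, 511.5 and 459.7 CPM in control, 1462, 1347 and 1015 CPM in LIN9 KO, 556, 586 and 501.5 CPM in Sav1 KO and 905, 1146 and 1324 CPM in double KO. The log2 fold changes were 1.15 ± 0.12, 1.32 ± 0.14, 1.04 ± 0.14 and 1.14 ± 0.14 in the 4 comparisons, in the order above. Col1a1 gave between 0.930 and 1.24 counts per count of Col1a2 in every library. Within that range double KO (0.930 to 1.01) lay below Sav1 KO (1.06 to 1.17) without overlap.

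Col3a1, the chain of type III collagen that forms fibers together with type I, was the most abundant collagen gene by counts. Its levels were 807, 847 and 656 CPM in LIN9 wt and 1563, 1962 and 1507 CPM in LIN9 KO of the first experiment. They were 1066, 1078 and 979.9 CPM in control, 2301, 2074 and 1672 CPM in LIN9 KO, 1044, 1192 and 945 CPM in Sav1 KO, and 1587, 1913 and 2566 CPM in double KO. No library of a Lin9-deleted group reached down to the groups with Lin9. Log2 fold changes lay at 1.12 ± 0.15, 0.95 ± 0.16, 0.93 ± 0.16 and 0.96 ± 0.16 (adjusted p between 8.2e-05 and 0.000494). Col3a1 lies on chromosome 1 (mm10, chr1:45311538-45349706, plus strand) beside Col5a2 (chr1:45374321-45503282, minus strand), and both rose in all 4 comparisons. Col1a1 lies apart from them at chr11:94936224-94953042.

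Type V collagen, which sits in the core of type I fibers and sets their diameter, is made from Col5a1 and Col5a2 here. Col5a2 rose from 312, 355 and 255 CPM to 479, 532 and 504 CPM in the first experiment, and in the second from 365, 366 and 362 CPM in control to 690.2, 672 and 538 CPM in LIN9 KO and 513, 646 and 675.5 CPM in double KO, with 376, 356 and 319.7 CPM in Sav1 KO. The groups with and without Lin9 did not overlap, and the log2 fold changes were 0.72 ± 0.13, 0.80 ± 0.11, 0.80 ± 0.11 and 0.75 ± 0.11. Col5a1 was at 163, 167 and 140.3 CPM in LIN9 wt and 258, 304 and 251 CPM in LIN9 KO. It was at 214, 223 and 188 CPM in control, 471, 441 and 299 CPM in LIN9 KO, 248, 230.3 and 201 CPM in Sav1 KO, and 263, 358.5 and 449 CPM in double KO.

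The log2 fold changes of Col5a1 were 0.79 ± 0.12 (adjusted p = 0.000194), 0.96 ± 0.21 (adjusted p = 0.00867), 0.66 ± 0.21 (adjusted p = 0.049) and 0.78 ± 0.21 (adjusted p = 0.0276). Both calls of the double KO were thin. Leaving out any of the 3 Sav1 KO libraries, or replicate 2 or 3 of double KO, ended the call against Sav1 KO (adjusted p from 0.0607 to 0.13), and leaving out replicate 1 or 3 of control, or 2 or 3 of double KO, ended the call against control (adjusted p from 0.059 to 0.0838). For Col5a1, 8.03% of the exonic length lies under genes of the opposite strand, introns included, and 2.5% under their exons. Of the other type V gene, Col5a3, at most 1.06 CPM was found in a library.

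Col11a1 and Col27a1 are minor fibrillar chains best known from cartilage. Col11a1 stood at 16.2, 17.5 and 12.8 CPM in LIN9 wt and 30.9, 42.0 and 34.6 CPM in LIN9 KO. The second experiment gave 22.3, 28.4 and 22.1 CPM in control, 48.6, 48.9 and 47.0 CPM in LIN9 KO, 18.5, 28.7 and 15.7 CPM in Sav1 KO, and 35.8, 52.8 and 61.5 CPM in double KO. These groups did not overlap by Lin9 genotype, and the log2 fold changes were 1.21 ± 0.15, 0.99 ± 0.20, 1.25 ± 0.21 and 1.04 ± 0.20. Col27a1 (28.8 to 33.0 CPM in LIN9 wt and 40.5 to 47.2 CPM in LIN9 KO, 29.1 to 41.2 CPM in control and 47.7 to 55.9 CPM in LIN9 KO) rose less, by 0.51 ± 0.11, 0.53 ± 0.14, 0.65 ± 0.14 and 0.83 ± 0.14, and its call in LIN9 KO against control was lost without replicate 2 of control (adjusted p = 0.103).

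Col24a1, a minor chain known from bone and cornea, was low and, with all libraries, was called in both double KO comparisons. It held 5.65, 5.14 and 4.84 CPM in control, 6.25, 6.89 and 7.83 CPM in LIN9 KO, 3.37, 3.38 and 3.41 CPM in Sav1 KO and 10.9, 7.40 and 12.1 CPM in double KO. The log2 fold change was 1.57 ± 0.29 in double KO against Sav1 KO (adjusted p = 0.000178) and 0.95 ± 0.27 in double KO against control (adjusted p = 0.0107), the latter ending without replicate 3 of double KO (adjusted p = 0.0746) and with DESeq2 (adjusted p = 0.0607). Without Sav1 deletion it was 0.64 ± 0.28 and 0.41 ± 0.28, neither past the threshold, although LIN9 KO and control of the second experiment did not overlap. The first experiment passed without replicate 3 of LIN9 KO (0.83, adjusted p = 0.0291). The difference itself, the interaction, was 1.16 ± 0.41 with an unadjusted p of 0.00901 and an adjusted p of 0.678, so an effect of Lin9 that depends on Sav1 was not shown for this gene.

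Col2a1, the chain of type II collagen of cartilage and of the early valve cushions, was the fibrillar gene called lower. Its values were 55.0, 68.1 and 44.0 CPM in LIN9 wt and 25.6, 30.1 and 30.7 CPM in LIN9 KO of the first experiment. They were 54.9, 58.6 and 58.8 CPM in control, 31.9, 32.8 and 22.4 CPM in LIN9 KO, 80.1, 76.0 and 55.6 CPM in Sav1 KO, and 18.8, 26.8 and 34.5 CPM in double KO. All libraries with Lin9 deleted were below all with Lin9. It fell by 0.95 ± 0.15, 0.98 ± 0.19, 1.41 ± 0.19 and 1.11 ± 0.19 on the log2 scale (adjusted p between 1.45e-05 and 0.000645).

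Col2a1 shares fibers with type XI and type IX chains in cartilage, and in these ventricles Col11a1 and the type IX genes went the other way. Col11a1 gave 0.257 to 0.294 counts per count of Col2a1 in LIN9 wt and 1.13 to 1.39 in LIN9 KO. The ratio was 0.377 to 0.485 in control and 0.231 to 0.378 in Sav1 KO, but 1.49 to 2.1 in LIN9 KO and 1.78 to 1.97 in double KO. Col9a1 per Col2a1 went from 0.376 to 0.461 in LIN9 wt to 1.51 to 2.34 in LIN9 KO, and from 0.418 to 0.608 in control to 1.96 to 2.12 in LIN9 KO and 1.63 to 2.66 in double KO. Both ratios thus separated the Lin9 genotypes in each experiment. Col11a2, another type XI chain, stayed between 1.13 and 4.10 CPM and was called in no comparison.

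**Figure D3:**
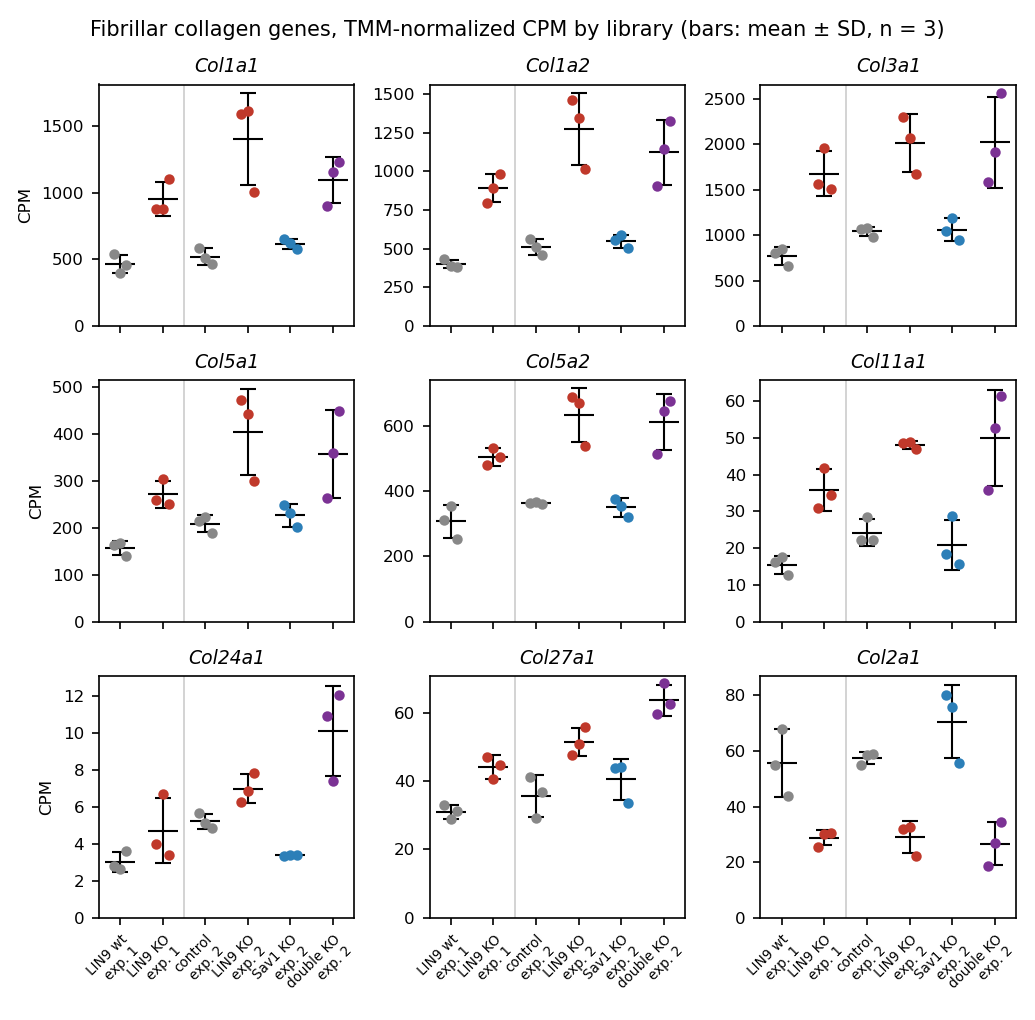
TMM-normalized CPM (linear axis from 0) of 9 fibrillar collagen genes in every library, by genotype group, with mean and SD (n = 3) and a line between the 2 experiments. In Col1a1, Col1a2, Col3a1, Col5a1, Col5a2, Col11a1 and Col27a1 the libraries of LIN9 KO and double KO lie above those of the matching groups with Lin9, and in Col2a1 below them.

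Of the 8 basement membrane chains, 1 was called higher in LIN9 KO against control, close to the 12.8% of all genes, and 0 in the other 3 LIN9 comparisons. Their log2 fold changes were nonetheless positive in all 8 in 3 comparisons and in 7 of 8 in double KO against Sav1 KO, with medians of 0.34, 0.44, 0.21 and 0.29. Col4a1 and Col4a2 encode the ubiquitous type IV network. Col4a1 held 355, 459 and 295 CPM in LIN9 wt and 382, 562 and 424 CPM in LIN9 KO. It held 478, 447 and 438 CPM in control, 833.5, 689.8 and 450 CPM in LIN9 KO, 528, 458 and 425 CPM in Sav1 KO and 379, 585 and 669 CPM in double KO. The groups overlapped in all 4 comparisons, and log2 fold changes were 0.30 ± 0.18, 0.53 ± 0.25, 0.21 ± 0.25 and 0.26 ± 0.25, none past the threshold.

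Here 1 library bore on the outcome. Without replicate 3 of LIN9 KO, Col4a1 rose by 0.72 in LIN9 KO against control (adjusted p = 0.021) and Col4a2 by 0.72 (adjusted p = 0.000788), and both passed the threshold in DESeq2 with all libraries (adjusted p = 0.0363 and 0.0169). With them all, edgeR gave Col4a2 a log2 fold change of 0.55 ± 0.21 (adjusted p = 0.101), from 363, 347 and 335.5 CPM in control to 600.1, 571 and 357 CPM in LIN9 KO. In the first experiment Col4a2 missed the threshold at 0.40 ± 0.15 (adjusted p = 0.0642), and passed it without replicate 2 of LIN9 wt (adjusted p = 0.0375) or replicate 1 of LIN9 KO (adjusted p = 0.0388), and in DESeq2 with all libraries (adjusted p = 0.041). With the replicate number as a block in edgeR, Col4a1 and Col4a2 both passed there (adjusted p = 0.0207 and 0.00258). Of the exonic length, 23.7% of Col4a1 and 16.6% of Col4a2 lie under genes of the opposite strand, introns included, and 0.295% and 0.982% under exons of other genes.

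Col18a1, the source of the fragment endostatin, was the member called. It went from 204, 176 and 161 CPM in control to 348, 290.3 and 211 CPM in LIN9 KO, by 0.65 ± 0.19 (adjusted p = 0.029). These values do not overlap by group, but the call ended without replicate 2 or 3 of control or replicate 1 or 2 of LIN9 KO (adjusted p from 0.0847 to 0.0925). Levels in Sav1 KO (213, 186 and 167 CPM) and double KO (169, 229 and 243 CPM) overlapped. The first experiment gave 159, 197 and 125 CPM in LIN9 wt, 206, 247 and 199.6 CPM in LIN9 KO and a log2 fold change of 0.44 ± 0.15 (adjusted p = 0.0549), with the call gained without replicate 2 of LIN9 wt (adjusted p = 0.0154) and in DESeq2 with all libraries (adjusted p = 0.0307). With the replicate number as a block in edgeR, Col18a1 also passed there (adjusted p = 0.000752). Opposite-strand genes, introns included, cover 33.5% of its exonic length and their exons 0%, and the strand setting of the counting is not stated in the sources used here.

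In double KO against control the log2 fold changes were 0.31 for Col15a1, 0.27 for Col4a5 and 0.17 for Col4a6. Those of Col4a1, Col4a2 and Col18a1 were 0.26, 0.40 and 0.24. No test compared these genes, and their ranges over the alternatives overlapped, such as 0.046 to 0.48 for Col15a1 and 0.055 to 0.42 for Col4a1. The highest of the class there was that of the scarce Col4a3, at 1.16. Col4a5 stayed between 184 and 308 CPM over all libraries, Col4a6 between 36.6 and 72.2 CPM, and Col15a1, the relative of Col18a1 in muscle and vessels, between 12.6 and 32.0 CPM. None of the 3 was called with all libraries in a comparison. Without replicate 1 of double KO, Col4a5 passed against Sav1 KO at 0.33 (adjusted p = 0.0222) and against control at 0.35 (adjusted p = 0.0168), and Col15a1 passed in the first experiment without replicate 3 of LIN9 KO at 0.51 (adjusted p = 0.0227). Col4a3 and Col4a4, the chains of the mature kidney filter, were at most 1.76 and 9.84 CPM in a library. The ratio of Col1a1 to Col4a1 counts sums up the contrast with the fibrillar class, at 1.07 to 1.23 in control, 1.24 to 1.36 in Sav1 KO, 1.91 to 2.34 in LIN9 KO and 1.84 to 2.37 in double KO. In the first experiment it was 0.874 to 1.56 in LIN9 wt and 1.57 to 2.60 in LIN9 KO.

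Type VI collagen forms beaded filaments at the cell surface from 1 chain each of Col6a1, Col6a2 and a longer chain, mostly Col6a3. All 3 rose in all 4 comparisons. Col6a1 went from 51.4, 67.0 and 51.1 CPM to 108, 175 and 157 CPM in the first experiment, and held 85.8, 78.5 and 78.9 CPM in control, 292.5, 336 and 221 CPM in LIN9 KO, 93.9, 83.7 and 74.7 CPM in Sav1 KO and 152, 253 and 279.6 CPM in double KO. With no overlap, its log2 fold changes of 1.38 ± 0.18, 1.81 ± 0.23, 1.44 ± 0.23 and 1.49 ± 0.23 (adjusted p between 0.000354 and 0.0015) exceeded those of every fibrillar gene called in the same comparison, apart from Col24a1 in double KO against Sav1 KO. Col6a3 rose by 1.36 ± 0.20, 1.16 ± 0.14, 1.34 ± 0.14 and 1.16 ± 0.14, from 55.9, 59.6 and 57.1 CPM in control to 152, 129 and 105 CPM in LIN9 KO.

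Col6a2 lies next to Col6a1 on chromosome 10 and rose by less. It held 72.6, 74.2 and 64 CPM in LIN9 wt, 96.4, 159 and 147 CPM in LIN9 KO, then 96.7, 95.9 and 82.7 CPM in control, 271, 278 and 171 CPM in LIN9 KO, 96.6, 95.9 and 92.5 CPM in Sav1 KO and 126, 217 and 225 CPM in double KO. No group with Lin9 deleted overlapped with its control, and log2 fold changes were 0.93 ± 0.16, 1.39 ± 0.24, 0.99 ± 0.24 and 1.04 ± 0.24. The call in double KO ended against Sav1 KO without replicate 3 of Sav1 KO or replicate 2 or 3 of double KO (adjusted p from 0.0518 to 0.059), and against control without replicate 3 of control or 2 of double KO (adjusted p = 0.0509 and 0.0567). Counts of Col6a1 per count of Col6a2 were 0.708 to 0.903 in LIN9 wt, 0.818 to 0.954 in control and 0.808 to 0.972 in Sav1 KO, and 1.07 to 1.12, 1.08 to 1.29 and 1.17 to 1.24 in the 3 groups with Lin9 deleted. The ratio thus lay higher in each group with Lin9 deleted than in its controls, without overlap.

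Col6a6, which can take the place of Col6a3, behaved apart from them. It lay between 20.3 and 29.9 CPM in all 6 libraries of the first experiment. In the second it held 68.2, 90.1 and 92.7 CPM in control, 38.5, 53.1 and 263 CPM in LIN9 KO, 43.1, 46.3 and 49.1 CPM in Sav1 KO, and 113, 209.9 and 242 CPM in double KO. Replicate 3 of LIN9 KO thus stood far above the others of its group, in which the other two were below every control. The log2 fold change of LIN9 KO against control was 0.49 (adjusted p = 0.682), and it ran from -0.90 to 0.90 over all alternatives. With this spread no comparison passed the threshold in the edgeR fit of all 12 libraries without a replicate block, double KO against Sav1 KO being nearest at 2.03 ± 0.70 (adjusted p = 0.0712), although these groups did not overlap. DESeq2 called that increase (adjusted p = 0.0132), as did edgeR with the replicate number as a block (adjusted p = 0.0487) and on the 6 libraries alone (adjusted p = 0.013). Without replicate 3 of LIN9 KO, double KO against LIN9 KO gave 2.03 (adjusted p = 0.0285), and Sav1 KO against control on 6 libraries gave -0.86 (adjusted p = 0.000611). Col6a4 and Col6a5 did not exceed 0.692 CPM in any library.

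Among the short network-forming chains, Col8a1 and Col8a2 encode type VIII collagen of vessel walls and valves. Col8a2 held 8.96, 9.38 and 8.10 CPM in LIN9 wt and 22.2, 23.0 and 29.5 CPM in LIN9 KO. Its values were 8.98, 11.7 and 7.96 CPM in control, 33.5, 28.9 and 37.3 CPM in LIN9 KO, 8.08, 8.78 and 10.6 CPM in Sav1 KO and 28.6, 33.5 and 25.6 CPM in double KO. The groups stood far apart, with log2 fold changes of 1.5 ± 0.15, 1.79 ± 0.19, 1.67 ± 0.19 and 1.61 ± 0.19. Its adjusted p of 4.74e-08 in LIN9 KO against control was the lowest of the 40 members there.

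Col8a1 was scarcer, at 3.99, 5.82 and 4.15 CPM in control and 6.25, 8.86 and 8.58 CPM in LIN9 KO. That step missed the threshold (0.75 ± 0.29, adjusted p = 0.0636), and it passed with the replicate number as a block (0.75, adjusted p = 0.047) or without replicate 1 of LIN9 KO (adjusted p = 0.0375). In double KO, at 11.3, 14.4 and 13.2 CPM, it was called against Sav1 KO (3.03, 5.74 and 4.09 CPM, 1.58 ± 0.28) and control (1.47 ± 0.27). It also rose in the first experiment, by 1.13 ± 0.22. Double KO against LIN9 KO gave 0.71 ± 0.25, without overlap of the groups, at an adjusted p of 0.232. The remaining network-forming gene, Col10a1, had 0 counts in all 18 libraries, but its whole exonic length lies inside Nt5dc1 on the opposite strand (0.575% under exons of that gene), and how overlapping genes were counted is not stated in the sources used here.

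FACIT chains attach to the surface of fibers. Col14a1 and Col16a1, which join type I fibers to the matrix around them, rose in all 4 comparisons. Col14a1 went from 26.3, 29.6 and 25.3 CPM to 62.7, 99.6 and 61.3 CPM in the first experiment, and in the second from 38.9, 43.2 and 41.2 CPM in control to 84.5, 89.9 and 84.3 CPM in LIN9 KO, with 36.7, 43.2 and 40.6 CPM in Sav1 KO and 74.0, 102 and 129 CPM in double KO. Its log2 fold changes were 1.46 ± 0.18, 1.07 ± 0.15, 1.33 ± 0.15 and 1.30 ± 0.15, with no overlap. Col16a1 went from 66.3, 55.2 and 52.3 CPM to 131.5, 125 and 126 CPM, and from 71.5, 89.4 and 82.7 CPM in control to 159, 155 and 153 CPM in LIN9 KO, with 60.9, 73.6 and 81.5 CPM in Sav1 KO and 130.5, 151 and 165 CPM in double KO. It rose by 1.14 ± 0.11, 0.94 ± 0.12, 1.05 ± 0.12 and 0.87 ± 0.12, with adjusted p from 1.4e-07 to 5.9e-06.

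The 3 chains of type IX collagen, which in cartilage coats type II fibers, rose together in all 4 comparisons. Col9a1 held 25.3, 26.6 and 16.52 CPM in LIN9 wt and 60.0, 45.3 and 60.5 CPM in LIN9 KO, and then 32.3, 35.6 and 24.6 CPM in control, 63.8, 64.3 and 47.4 CPM in LIN9 KO, 44.4, 32.1 and 24.6 CPM in Sav1 KO and 49.8, 56.7 and 56.2 CPM in double KO. Groups with Lin9 deleted lay above the others in each experiment, with log2 fold changes of 1.28 ± 0.17, 0.93 ± 0.18, 0.68 ± 0.18 and 0.81 ± 0.18. Col9a2 (24.2 to 33.2 CPM in control and 46.2 to 71.5 CPM in LIN9 KO) changed by 0.94 ± 0.12, 1.03 ± 0.15, 1.02 ± 0.15 and 0.93 ± 0.15. Col9a3 (23.3 to 27.3 CPM in control and 36.5 to 49.6 CPM in LIN9 KO), of which 6.07% of the exonic length lies under Tcfl5 on the other strand, changed by 1.04 ± 0.16, 0.74 ± 0.15, 0.68 ± 0.15 and 0.70 ± 0.15.

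Col22a1, a chain of tissue junctions such as that of muscle and tendon, had the highest log2 fold change among the members called in the first experiment (1.90 ± 0.32), from a low level of 1.13, 0.843 and 1.04 CPM to 2.93, 5.24 and 3.19 CPM. In the second it held 0.665, 2.40 and 0.692 CPM in control, 5.59, 4.59 and 4.10 CPM in LIN9 KO, 0, 0.675 and 1.71 CPM in Sav1 KO and 3.07, 1.41 and 6.40 CPM in double KO. LIN9 KO lay above control without overlap (1.90 ± 0.58, adjusted p = 0.0195), a call lost without replicate 1 or 3 of control or 2 of LIN9 KO (adjusted p from 0.053 to 0.0926), and the log2 fold change was 2.71 without replicate 2 of control. Double KO overlapped with Sav1 KO but passed against it (2.13 ± 0.68, adjusted p = 0.0244), except without replicate 1 or 2 of Sav1 KO or 3 of double KO (adjusted p from 0.0827 to 0.181), with log2 fold changes of 1.44 without replicate 3 of double KO and 3.27 without replicate 3 of Sav1 KO. It missed against control (1.5 ± 0.62, adjusted p = 0.0886), where it passed without replicate 2 of control or 2 of double KO (adjusted p = 0.0377 and 0.0343). Over all alternatives this log2 fold change ran from 0.80 to 2.33, the latter without replicate 2 of control.

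Col12a1, a large FACIT chain of tension-bearing tissue, rose by 0.54 ± 0.15 in the first experiment, 0.50 ± 0.13 in double KO against Sav1 KO and 0.56 ± 0.13 in double KO against control. It was 0.18 ± 0.14 in LIN9 KO against control (adjusted p = 0.386), where 53.2, 69.6 and 57.8 CPM stood beside 62.5, 77.7 and 64.1 CPM. The call of the first experiment, where the groups overlapped, was lost in 4 of 6 omissions (replicate 2 or 3 of LIN9 wt, 1 or 2 of LIN9 KO, adjusted p from 0.0724 to 0.0977), and those of double KO without its replicate 3 (adjusted p = 0.109 and 0.0684). Col20a1 did not exceed 4.85 CPM and was called in no comparison with all libraries, and Col19a1 did not exceed 1.07 CPM.

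**Figure D4:**
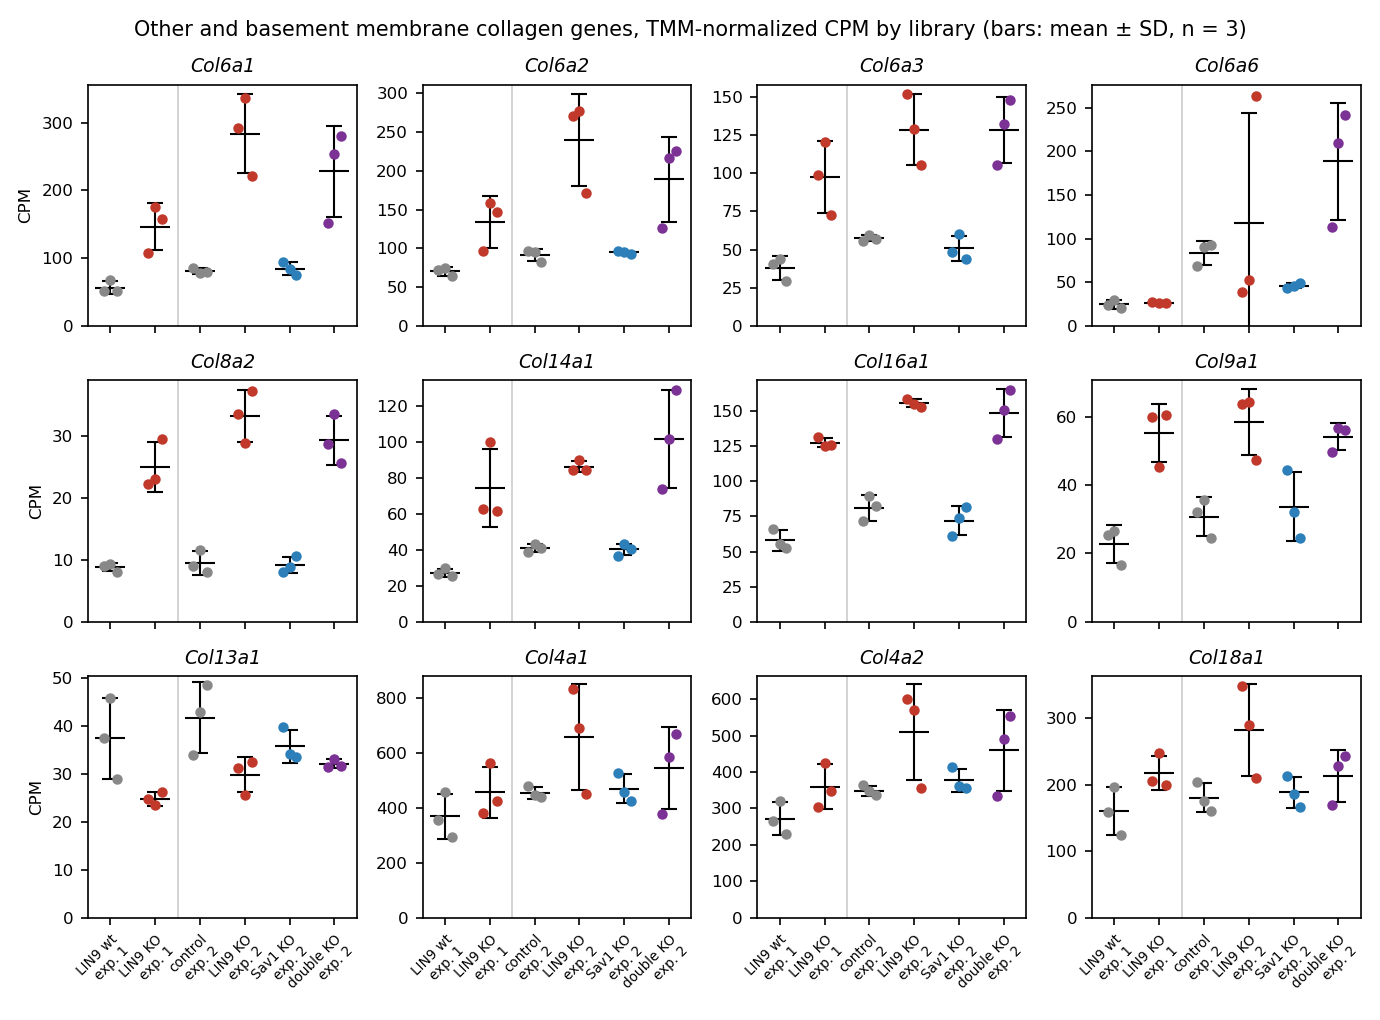
TMM-normalized CPM (linear axis from 0) of 9 other collagen genes and 3 basement membrane genes in every library, by genotype group, with mean and SD (n = 3). Type VI, VIII, IX, XIV and XVI genes show separate groups by Lin9 genotype, Col6a6 shows 1 LIN9 KO library at 263 CPM beside 38.5 and 53.1 CPM, and the double KO libraries of Col4a1, Col4a2 and Col18a1 overlap with control.

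Of the 4 transmembrane chains, Col13a1 was called lower in 2 comparisons and Col23a1 higher in 3. Col13a1, found at junctions of muscle with nerve and matrix, fell by 0.59 ± 0.15 in the first experiment, from 37.4, 45.9 and 29.0 CPM to 24.7, 23.4 and 26.2 CPM, without overlap. It fell by 0.49 ± 0.15 in LIN9 KO against control, from 33.9, 42.8 and 48.4 CPM to 31.2, 25.6 and 32.4 CPM. Double KO (31.4, 33.1 and 31.7 CPM) gave -0.38 ± 0.15 against control (adjusted p = 0.0653) and -0.16 ± 0.15 against Sav1 KO. The calls were lost without replicate 2 of LIN9 wt in the first experiment (adjusted p = 0.0676), and without replicate 3 of control or 2 of LIN9 KO in the second (adjusted p = 0.125 and 0.073), while without replicate 1 of control the double KO passed (adjusted p = 0.0212).

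Col23a1, another transmembrane chain, was called in all 3 LIN9 comparisons of the second experiment and not in the first (0.15 ± 0.10). Its levels were 55.9, 64.1 and 66.4 CPM in control, 86.8, 92.8 and 76.4 CPM in LIN9 KO, 47.1, 38.8 and 49.8 CPM in Sav1 KO and 72.6, 84.9 and 85.0 CPM in double KO. Sav1 KO was below control without overlap, by 0.46 ± 0.13 on the log2 scale, with an unadjusted p of 0.00109 and an adjusted p of 0.566. Double KO rose against Sav1 KO by 0.84 ± 0.12 (adjusted p = 9.37e-06) and against control by 0.38 ± 0.12 (adjusted p = 0.0233). LIN9 KO rose by 0.46 ± 0.12 (adjusted p = 0.00496), lost without replicate 2 of LIN9 KO (adjusted p = 0.0567). The call of double KO against control was lost with DESeq2 (adjusted p = 0.0638) and without replicate 1 or 2 of control or 2 or 3 of double KO (adjusted p from 0.0523 to 0.133). Col25a1 stayed between 7.34 and 17.3 CPM and Col17a1 at or below 1.44 CPM, neither called.

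Col7a1, the anchoring fibril chain, was low and rose in 3 comparisons. It went from 1.65, 2.21 and 1.97 CPM to 4.77, 5.56 and 3.60 CPM in the first experiment (1.25 ± 0.26). In the second it held 1.66, 2.74 and 2.42 CPM in control, 4.60, 3.94 and 5.22 CPM in LIN9 KO, 1.68, 2.36 and 4.44 CPM in Sav1 KO and 5.45, 8.10 and 7.47 CPM in double KO. Double KO rose by 1.30 ± 0.35 against Sav1 KO, lost without replicate 1 of Sav1 KO (adjusted p = 0.058), and by 1.61 ± 0.37 against control. LIN9 KO lay above control without overlap at 1.00 ± 0.40 but missed the threshold (adjusted p = 0.07). Col26a1 (22.5 to 51.6 CPM) was not called with all 12 libraries and the filter on low counts, but passed in LIN9 KO against control with no filter (adjusted p = 0.0172) or on 6 libraries alone (adjusted p = 0.0447) and in double KO against Sav1 KO with no filter (adjusted p = 0.0223). It also passed without replicate 3 of LIN9 KO in LIN9 KO against control (adjusted p = 0.0475) and without replicate 1 of double KO against Sav1 KO (adjusted p = 0.00271). Col28a1 did not exceed 1.86 CPM.

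Levels of different genes were set side by side per kb of exonic length, with all annotated exons of a gene merged. This length was 12426 bases for Col1a2 and 6563 for Col1a1, so the order between genes depends in part on the annotation. Col3a1 led in control with 106 ± 5.45 CPM per kb, and Col1a1 followed at 79.5 ± 9.42. Next came Col4a1 at 60.9 ± 2.83, Col4a2 at 52.7 ± 2.12, Col1a2 at 41.2 ± 4.24 and Col5a2 at 38.0 ± 0.192. Col1a2 and Col5a2 did not differ beyond their spread. In LIN9 KO the order changed, with Col1a1 at 214 ± 52.2 and Col3a1 at 205 ± 32.4 within each other's spread, then Col1a2 at 103 ± 18.7, Col4a1 at 88.1 ± 26.0 and Col4a2 at 76.9 ± 20.0. Col6a1 moved from 18.5 ± 0.938 to 64.7 ± 13.3 CPM per kb, close to Col5a2 at 66.0 ± 8.69. Col1a2 and Col4a1 lay within each other's spread in LIN9 KO, whereas Col4a1 and Col4a2 lay above Col1a2 beyond their spread in control.

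**Figure D5:**
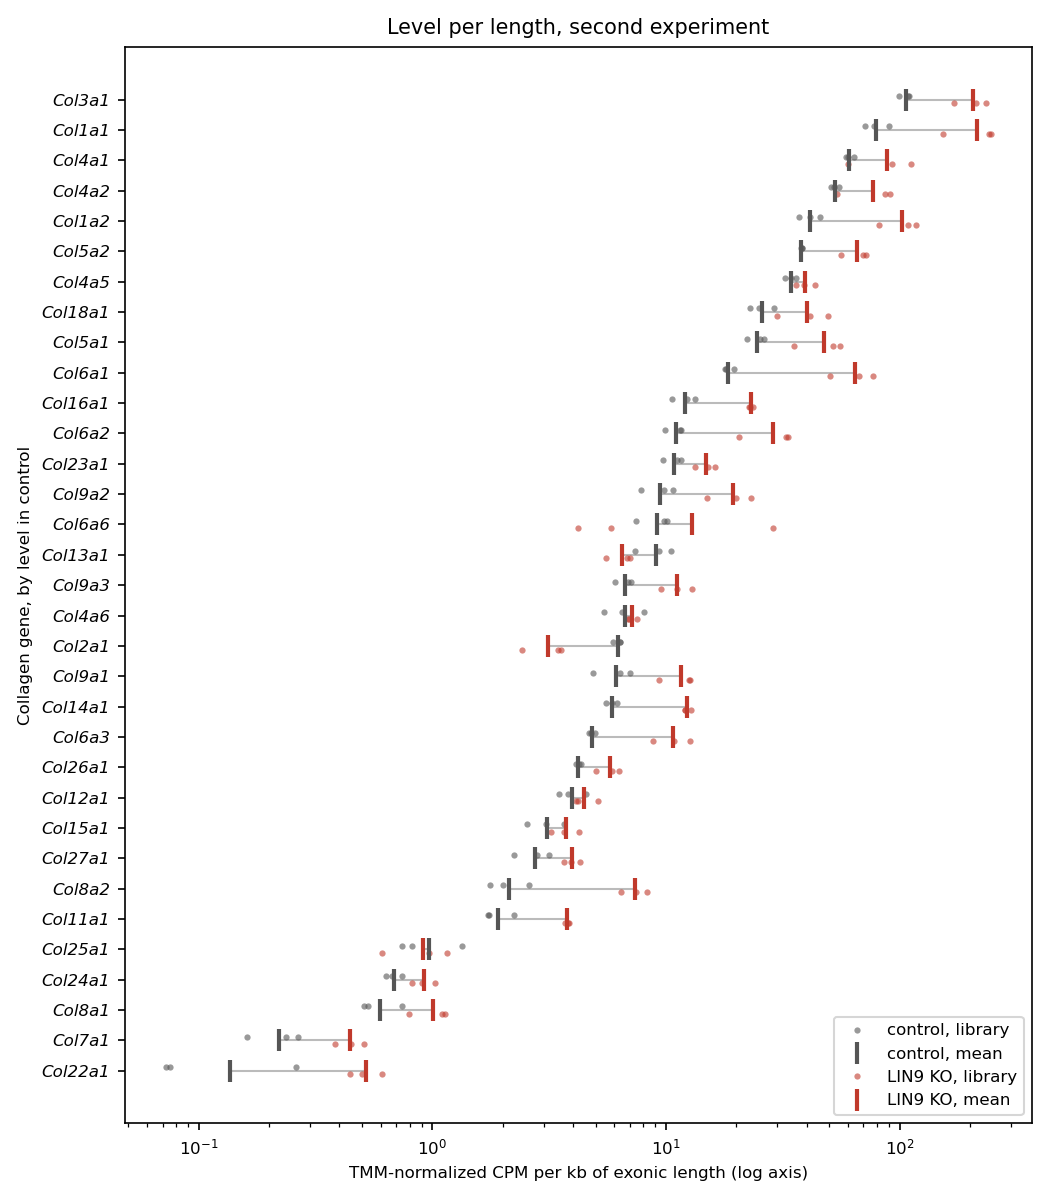
Level per kb of exonic length (TMM-normalized CPM per kb, log axis) of 33 collagen genes in control and LIN9 KO of the second experiment, ordered by the control mean. Small points are libraries and ticks the means. The means of Col3a1 and Col1a1 move from 106 and 79.5 to 205 and 214 CPM per kb, and Col2a1 and Col13a1 are the clear moves to the left.

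Most genes that modify, crosslink or bind collagen fibers were called higher after Lin9 deletion, whereas few partners of the basement membrane were in the double KO. The counts of the gene lists are to be read against 11.1%, 12.8%, 11.8% and 10.7% of all genes called higher and 9.78%, 10.5%, 11.6% and 9.96% called lower in the 4 comparisons. Of 17 genes for modification and folding of chains, 13, 14, 12 and 13 were called higher in the 4 comparisons and 0 lower, with median log2 fold changes of 0.64, 0.83, 0.70 and 0.61. P4ha1, the catalytic subunit of prolyl 4-hydroxylase, which lets the helix hold at body temperature, went from 105, 104 and 118 CPM in control to 382, 435 and 358 CPM in LIN9 KO (1.84 ± 0.11), with 111, 108 and 104 CPM in Sav1 KO and 274, 355 and 303 CPM in double KO. P4ha2 rose by 1.30 to 1.55 and P4ha3 by 0.76 to 0.98 over the 4 comparisons, and the lysyl hydroxylase Plod2 by 1.12 to 1.43. The 4 sets of calls rest on shared groups in the second experiment.

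Of 12 genes for cleavage and crosslinking of procollagen, 9, 9, 8 and 8 were called higher, with Tll1 lower in double KO against control by 1.12 ± 0.39. Lox, the lysyl oxidase that starts crosslinks between fibers, rose by 1.38 ± 0.11, 1.26 ± 0.11, 1.22 ± 0.11 and 1.21 ± 0.11, and Loxl2 and Loxl3 were called in all 4. Of 10 proteoglycans and glycoproteins that bind fibers, 8 were called higher in each comparison, among them Bgn, from 182, 180.2 and 172 CPM in control to 527.5, 508 and 404.5 CPM in LIN9 KO, and Tnxb, Thbs2 and Fn1. Of 10 collagen receptors, 4, 4, 6 and 5 were called higher, with the uptake receptor Mrc2 at 1.30, 1.52, 1.23 and 1.29 and the fibroblast kinase Ddr2 at 0.90, 0.78, 0.95 and 1.33, and Ddr1 was called lower against Sav1 KO (-0.56 ± 0.11).

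Of 12 partners of the basement membrane, 3, 6, 1 and 2 were called higher, the 1 and 2 in double KO being close to the 11.8% and 10.7% of all genes, and Lama4, a laminin chain of vessels, was called lower in LIN9 KO against control (-0.44 ± 0.12). Nid1, which links laminin to type IV collagen, passed in the first experiment (0.56 ± 0.17) and in LIN9 KO against control (0.64 ± 0.20), and so did Pxdn, which crosslinks type IV collagen (0.43 ± 0.14 and 0.50 ± 0.14). Medians were 0.15, 0.40, 0.09 and 0.23, as for the basement membrane chains below those of the fiber lists. In both Sav1 comparisons and the interaction, edgeR called 0 genes of these 5 lists.

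The marker genes of several cell types moved with the collagens, beside the same 11.1%, 12.8%, 11.8% and 10.7% of all genes called higher and 9.78%, 10.5%, 11.6% and 9.96% called lower. In bulk RNA, fewer or more cells of a type and less or more RNA per cell cannot be told apart. Of 10 ventricular cardiomyocyte markers, 7 were called lower in each of the 4 comparisons and 0 higher, and their sum went from 23610 to 24160 CPM in LIN9 wt down to 10620 to 15360 CPM in LIN9 KO, and from 26210 to 27700 CPM in control to 13400 to 15160 CPM in LIN9 KO and 13400 to 16890 CPM in double KO, with 28370 to 29640 CPM in Sav1 KO. Of 9 fibroblast and mesenchyme markers, 7, 8, 8 and 7 were called higher, and the sum was 857 to 948 CPM in LIN9 wt and 1633 to 1745 CPM in LIN9 KO, then 998 to 1257 CPM in control, 975 to 1247 CPM in Sav1 KO, 1578 to 1960 CPM in LIN9 KO and 2057 to 2246 CPM in double KO. Of these 9 genes, Dcn, Lum, Postn and Ddr2 also stand in the lists above.

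Epicardial markers were called higher in 7, 7, 7 and 6 of 8, with sums of 322.5 to 354 CPM in LIN9 wt and 598 to 705.5 CPM in LIN9 KO, then 305.5 to 313 CPM in control, 272 to 314 CPM in Sav1 KO, 580 to 627 CPM in LIN9 KO and 512 to 569 CPM in double KO. Macrophage markers were called higher in 7, 5, 7 and 6 of 8 (81.2 to 84.8 against 135 to 174 CPM in the first experiment, and 96.3 to 103 CPM in control, 81.8 to 103 CPM in Sav1 KO, 149 to 187 CPM in LIN9 KO and 165 to 213 CPM in double KO). Erythroid markers were called higher in 7, 8, 8 and 6 of 8 tested, at 5167 to 7381 against 18740 to 49630 CPM and, in the second experiment, 3026 to 3732 CPM in control, 2491 to 3208 CPM in Sav1 KO, 11650 to 21310 CPM in LIN9 KO and 6302 to 17630 CPM in double KO, while Alas2 was at 0 in every library.

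Cartilage markers, which bear on Col2a1, Col9a1 and Col11a1, were called higher in 3 of 6 and 3, 3 and 2 of 5, none lower. Their sum was 86.4 to 153 CPM in LIN9 wt and 222 to 273 CPM in LIN9 KO, then 135 to 146 CPM in control, 115 to 135 CPM in Sav1 KO, 164 to 191 CPM in LIN9 KO and 179 to 202 CPM in double KO, with Matn1 at 0 throughout control and double KO. Endothelial markers were called higher in 4, 4, 6 and 3 of 9 with 0, 1, 1 and 1 lower (1099 to 1396 against 1313 to 1708 CPM; control 1220 to 1264, Sav1 KO 1075 to 1164, LIN9 KO 1346 to 1510, double KO 1227 to 1444 CPM). Smooth muscle and pericyte markers gave 2 higher of 7 in each with 1, 1, 2 and 0 lower (1588 to 1834 against 2207 to 2440 CPM; control 1580 to 1654, Sav1 KO 1833 to 1883, LIN9 KO 1585 to 2008, double KO 1736 to 1962 CPM). Atrial markers gave 2, 3, 3 and 2 higher of 8 and 0 lower (3111 to 4020 against 4193 to 5277 CPM; control 3046 to 3529, Sav1 KO 2859 to 3315, LIN9 KO 4133 to 4847, double KO 3786 to 4384 CPM). The part of these cell types in the collagen values was not tested.

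Promoters were read for motifs of both regulators, because the genes that rose include many that moved together. RefSeq windows of the 250 bases before the start site (GRCm38.p6) were at hand for 35 of the 44 genes. The letters TTTGAA on either strand, the core of the element bound by MuvB, were in 6 of 35 collagen windows (17.1%) and in 4934 of 27025 over all genes (18.3%). The TEAD site letters GGAATG on either strand, through which YAP is brought to DNA, were in 4 of 35 (11.4%) and 3880 of 27025 (14.4%). Of the 12 genes with a window among the 16 higher in all 4 comparisons, 3 held the first (25%) and 2 the other (16.7%). A gene with more than 1 start site counts as holding a motif where any of its windows does. Shown are the windows of genes higher in all 4 that hold a match and no annotated exon, namely Col3a1 at chr1:45311288-45311537 (plus strand), Col6a2 at chr10:76623631-76623880 (minus strand) and Col9a1 at chr1:24177360-24177609 (plus strand), each 5′ to 3′ with the matches in capitals.
Col3a1: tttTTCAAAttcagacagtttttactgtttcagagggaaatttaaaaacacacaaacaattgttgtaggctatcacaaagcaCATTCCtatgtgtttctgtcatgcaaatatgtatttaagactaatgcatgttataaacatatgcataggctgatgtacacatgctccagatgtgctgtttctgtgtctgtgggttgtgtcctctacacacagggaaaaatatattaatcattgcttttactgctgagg
Col6a2: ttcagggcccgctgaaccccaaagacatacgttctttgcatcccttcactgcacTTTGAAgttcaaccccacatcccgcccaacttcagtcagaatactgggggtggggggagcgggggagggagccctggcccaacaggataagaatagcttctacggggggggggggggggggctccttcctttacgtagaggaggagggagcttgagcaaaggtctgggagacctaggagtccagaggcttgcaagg
Col9a1: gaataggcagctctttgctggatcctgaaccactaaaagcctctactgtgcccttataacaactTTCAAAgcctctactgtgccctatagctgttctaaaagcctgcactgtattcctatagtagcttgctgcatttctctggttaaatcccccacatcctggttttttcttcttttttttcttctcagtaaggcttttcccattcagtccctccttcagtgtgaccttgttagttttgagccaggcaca
The capitals mark TTCAAA, the reverse complement of the MuvB core, and CATTCC, the reverse complement of the TEAD letters, in Col3a1, TTTGAA in Col6a2 and TTCAAA in Col9a1. A match of 6 letters is a description of the window and does not show binding.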

How the data were processed

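Reads of poly(A) RNA were mapped by the authors to mm10 with TopHat 2.1.0 and BOWTIE2, brought down to the smallest number of mappable reads, and counted per Ensembl gene with summarizeOverlaps. Overlap mode and strand setting are not given in the sources used here. The deposited values used are whole-number counts, and the deposited tables of fold changes were not used.

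Each count table was TMM-normalized and fitted by robust quasi-likelihood in edgeR 4.0.16 under R 4.3.3, on genes with a mean count above 1, with all 12 libraries of the second experiment in 1 fit. P-values were adjusted by Benjamini-Hochberg over all genes, with a threshold of 0.05. SE is that of the log2 fold change. Alternatives were DESeq2 1.42.0, other scalings and filters, a replicate block, 6-library fits and each library left out. Exonic lengths came from GENCODE on mm10. The fits were tested on simulated data.

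Named were members called in any of 7 comparisons or with a mean of at least 10 CPM, and at most 4 genes of each other list. Members and lists were chosen with earlier results of these data known. Same-numbered libraries of control and LIN9 KO in the second experiment deviated together (correlations 0.600, 0.217 and 0.313), by values alone. Replicate 2 of control did not match its own number best among the LIN9 KO libraries. LIN9 KO and Sav1 KO gave 0.327, 0.095 and 0.157, where each LIN9 KO library matched its own number best.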

Additional observations from a re-analysis of the deposited data

How the results depend on the processing

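The counts of called collagen genes stayed within 21 to 25 (first experiment), 17 to 24 (LIN9 KO against control), 19 to 25 (double KO against Sav1 KO) and 18 to 24 (double KO against control) over all alternatives, those that left out 1 library included. Calls over all genes ran from 2722 to 5001, 3019 to 4370, 2974 to 5057 and 2470 to 4022 in the same settings. No fold change of a called member changed sign. With the replicate number as a block the 4 counts were 25, 22, 23 and 21, beside 5001, 4370, 4488 and 4022 of all genes. Beside the gain of Col8a1 given above, the block added Col18a1, Col4a1 and Col4a2 in the first experiment and Col6a6 in double KO against Sav1 KO, and ended Col5a1 in both double KO comparisons (adjusted p = 0.0962 and 0.0631). With no filter on low counts, Col4a2 passed in the first experiment, LIN9 KO against control and double KO against control, Col26a1 in LIN9 KO against control and double KO against Sav1 KO, Col18a1 in the first experiment and Col22a1 in double KO against control. Only control and LIN9 KO of the second experiment had every same-numbered pair above a correlation of 0.1, with LIN9 KO and Sav1 KO just short of it at 0.095 in replicate 2.

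For Sav1 KO against control, 1 collagen gene (Col6a6) was called on the 6 libraries alone, beside 31 of all genes. For double KO against LIN9 KO, 2 (Col18a1 and Col1a1) were called with no filter on low counts, and 0 to 3 with 1 library left out, the 3 being Col18a1, Col1a1 and Col6a6 without replicate 3 of LIN9 KO. Calls over all genes rose as well, to 309 with no filter and 378 without that library, from 0 higher and 2 lower. The interaction had 1 call (Col1a1) with no filter and 0 to 1 with 1 library left out, again without replicate 3 of LIN9 KO. Over all genes these settings called 17 with no filter and 64 without replicate 3 of LIN9 KO. The cause was not tested. At the depth of the second experiment, genes under about 1 CPM rest on few counts.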
